A study of Mus musculus with 6 samples.

Results

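The collagen genes of the left hippocampus were compared between neonatal mice raised in high oxygen and mice raised in room air. The group was taken as every protein-coding gene whose symbol has the form Col, a number, a and a number, which gave 44 of the 24935 genes in the deposited table. Of these, 11 encode fibril-forming chains (types I, II, III, V, XI, XXIV and XXVII), 6 encode the chains of type IV collagen and 27 belong to other types. Expression was high enough for a test (a mean of at least 10 normalized counts over the libraries) in 42 of the 44, and the exceptions were Col10a1 and Col17a1.

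Collagens are proteins of the extracellular matrix in which 3 chains wind around each other as a triple helix, and the glycine that recurs at each turn of 3 residues is what allows that winding. Fibrillar collagens assemble into fibrils of the meninges and of vessel walls, whereas type IV collagen forms the sheet-like network of the basement membrane that encloses brain vessels and lines the pial surface. The other types bind to fibrils, form microfilaments or short networks, or span the cell membrane, and in the brain most collagen is made by vascular and meningeal cells while some membrane-bound types are made by neurons.

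C57BL/6 pups of both sexes were kept with their dams in 85% oxygen (hyperoxia) or in room air (air) from P2 to P14, and all were harvested at P14, with P standing for postnatal day. The mice carried no engineered allele, so no targeted gene was there to check the column names, and every direction given here follows the group named in the deposited columns. That orientation is in doubt: for several genes, among them Camk2a, Slc17a7 and Cspg4, the sign of the expression change that the study prints is opposite to the difference between these columns. Which of these is right could not be settled here, and if the column names were exchanged every direction below would be reversed while sizes and tests would stay. There were 3 air and 3 hyperoxia libraries, each from polyA-selected RNA of a different mouse, with 30384052 to 38746972 reads on genes per library. All collagen genes together took 0.0655 to 0.0695% of those reads in air and 0.0909 to 0.0961% in hyperoxia, and the groups did not overlap.

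The repeat that makes a collagen is visible in the coding sequence as runs of GGN followed by 6 further bases, where GGN is any glycine codon. For each gene the longest unbroken run was taken over all its GENCODE coding transcripts with an annotated start codon. This run had a median of 338 such triplets of residues in the 11 fibrillar genes (216 to 344). The median was 43.5 in the 6 type IV genes (39 to 66) and 57 in the 9 fibril-associated (FACIT) genes (32 to 113). The first 90 coding bases of that run are given for 2 partner chains of type I, for Col24a1, whose transcript changed most, and for the type IV chain Col4a1, with the glycine codons in capitals. All lie in coding exons of genes that GENCODE M21 (build GRCm38) places at chr11:94936224-94953042 (plus strand, Col1a1), chr6:4504814-4541544 (plus, Col1a2), chr3:145292472-145552011 (plus, Col24a1) and chr8:11198423-11312826 (minus, Col4a1).
Col1a1: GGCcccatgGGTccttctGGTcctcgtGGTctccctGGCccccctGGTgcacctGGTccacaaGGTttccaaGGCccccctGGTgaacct
Col1a2: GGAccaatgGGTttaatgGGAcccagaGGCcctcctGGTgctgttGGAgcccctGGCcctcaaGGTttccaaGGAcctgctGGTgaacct
Col24a1: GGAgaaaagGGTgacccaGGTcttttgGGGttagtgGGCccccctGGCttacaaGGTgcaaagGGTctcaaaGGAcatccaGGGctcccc
Col4a1: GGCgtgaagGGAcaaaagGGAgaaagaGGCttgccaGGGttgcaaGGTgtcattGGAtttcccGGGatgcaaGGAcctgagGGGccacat
The run continued for 338 triplets in Col1a1, 339 in Col1a2 and 216 in Col24a1, and for 40 in Col4a1 before its first break in the pattern.

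More collagen transcripts were higher than lower in the libraries labelled hyperoxia, the orientation of which is in doubt as stated above. At an adjusted p under 0.05 (limma on log2 of the normalized count plus 1, Benjamini-Hochberg over all 17778 genes tested), 19 of the 42 genes were higher and 2 were lower, beside 14.9% of all genes tested that were higher and 15.6% that were lower (30.5% in either direction). The median log2 fold change, hyperoxia minus air, was 0.45 over the 42 genes and -0.01 over all genes tested. Every hyperoxia library lay above every air library for 20 of the 42 genes and below for 3, beside 22.3% and 23.8% of all genes tested. Of the 21 genes called, 13 (12 higher, 1 lower) were called under all 16 alternative analyses. Among the 21 tested genes that were not called, 5 were called by some alternative and 16 by none.

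**Figure D1:**
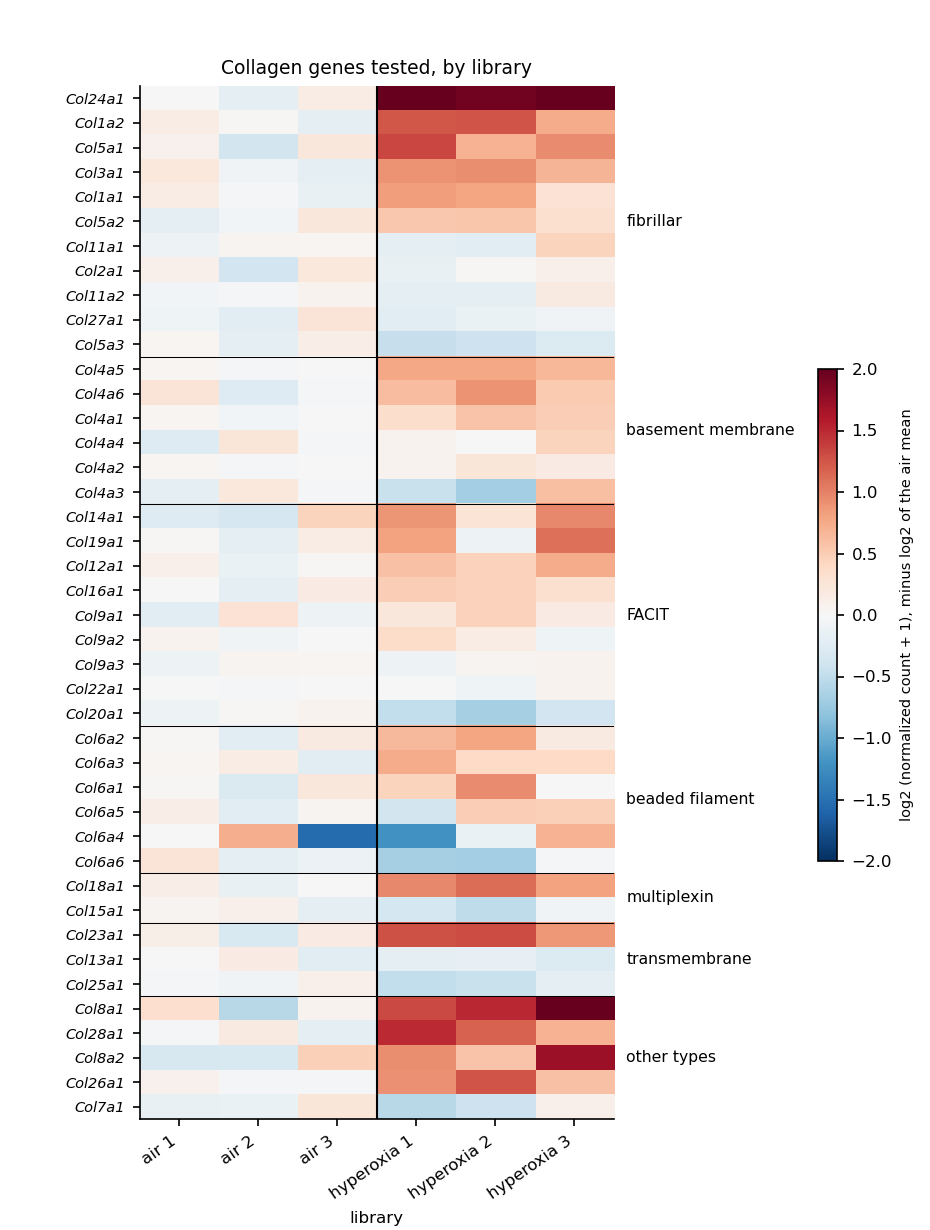
Each row is 1 of the 42 tested collagen genes, grouped by class, and each column is 1 library. Colour gives log2 of the normalized count plus 1, minus log2 of the air mean of the same quantity, and saturates at 2 in either direction. The 3 hyperoxia columns are red for Col24a1, Col1a2, Col5a1, Col3a1 and Col8a1 and blue for Col20a1 and Col25a1, while Col6a4 varies as much within the groups as between them.

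Bulk tissue was sequenced, so fewer or more cells of a type and less or more RNA per cell cannot be told apart. Markers of several other cell types moved with the groups. Summed normalized counts of 12 meningeal and perivascular fibroblast markers (none of them a collagen) were 6507 to 7772 in air and 8082 to 11682 in hyperoxia, and 7 of the 12 genes were called higher and none lower. Igf2 made up most of that sum, with a mean of 4598 in air and 6754 in hyperoxia. The median log2 fold change of the 12 genes was 0.58. For 12 endothelial markers the sums were 12670 to 13288 in air and 14425 to 16607 in hyperoxia (7 higher, 2 lower), and for 12 markers of pericytes and smooth muscle 13325 to 13717 and 14476 to 16908 (3 higher, 0 lower of 11 tested). In the pericyte and smooth muscle list the rise of the sum lay in Rgs5, with a mean of 6332 in air and 8251 in hyperoxia. The median log2 fold change of that list was 0.08, with 7 genes positive and 4 negative. Markers of choroid plexus summed to 652 to 1537 in air and to 598 to 8485 in hyperoxia, the highest value coming from hyperoxia library 3 (2 higher, 0 lower of 11 tested). Thalamus markers summed to 3509 to 3798 in air and 4546 to 6134 in hyperoxia (3 higher, 0 lower of 7 tested). Their log2 fold changes were positive for 4 and negative for 3. Slc17a6 had means of 593 in air and 1966 in hyperoxia, whereas Prkcd had 1421 and 1254. The hippocampal excitatory neuron markers were abundant in every library, with sums of 266411 to 277984 in air and 187550 to 220926 in hyperoxia (0 higher, 6 lower of 10). Most of that sum was Camk2a, with a mean of 164568 in air and 116013 in hyperoxia. Astrocyte markers summed to 168772 to 178077 in air and 207814 to 233923 in hyperoxia (3 higher, 0 lower of 7). Slc1a2 was most of it (means of 104640 and 149380), and the median log2 fold change of the list was 0.06. Oligodendrocyte lineage markers, mostly Mbp, summed to 185464 to 275183 and to 134341 to 162160 (2 higher, 4 lower of 8). Interneuron (1 higher, 1 lower of 8) and microglia (2 higher, 0 lower of 6) markers were also detected. Over all genes tested, 14.9% were higher and 15.6% lower, and the interneuron shares (12.5% each) were near those. None of the genes in these lists was at 0 in any library. The part of any of these cell types in the collagen values below was not tested.

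Among the fibrillar genes, 6 of 11 were higher in hyperoxia and none was called lower, with a median log2 fold change of 0.48. These shares were 54.5% and 0%, beside 14.9% and 15.6% of all genes tested. Their summed normalized count was 6614, 6140 and 6409 in the air libraries and 10111, 9534 and 8841 in the hyperoxia libraries, a ratio of means of 1.49. The lowest hyperoxia library thus exceeded the highest air library. The fibroblast markers given above, whose sum was mostly Igf2, had a ratio of means of 1.45. Hyperoxia library 3 was the lowest of its group in both sums. That library was also the lowest of its group for the summed interneuron markers (22301).

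Col24a1 (ENSMUSG00000028197.4), a fibrillar chain known from developing bone and cornea, had the largest fold change of all collagen genes tested. Its normalized counts were 45.2, 39.7 and 50.3 in the air libraries and 258, 174 and 235 in the hyperoxia libraries. The groups were far apart relative to their spread, with means of 45.1 ± 5.3 and 222 ± 43 (SD, n = 3 each), a log2 fold change of 2.26 ± 0.18 (SE) and an adjusted p of 0.000236. The transcript was rare per unit length in both groups, at 0.175 and 0.918 RPKM (reads per kilobase of the longest transcript, scaled to the reads on genes of each library).

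Both chains of type I collagen, the main fibril of meninges and adventitia, were higher. Col1a1 counts were 1397, 1231 and 1139 in air and 2240, 2168 and 1539 in hyperoxia. Col1a2 counts were 1002, 915 and 791 in air and 2144, 2149 and 1505 in hyperoxia. Neither gene overlapped between groups, and for both hyperoxia library 3 was nearest to air. The log2 fold change was 0.64 ± 0.14 for Col1a1 (adjusted p = 0.00861) and 1.09 ± 0.14 for Col1a2 (adjusted p = 0.00108).

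Col3a1, the homotrimeric fibril of distensible tissue that forms mixed fibrils with type I, was also higher. Its counts were 828, 676 and 630 in air against 1329, 1357 and 1135 in hyperoxia, a log2 fold change of 0.85 ± 0.12 (adjusted p = 0.00126). Type V collagen starts fibril assembly and sets fibril diameter, and 2 of its 3 chains were higher. Col5a1 counts were 534, 393 and 590 in air and 1276, 817 and 973 in hyperoxia, a log2 fold change of 1.01 ± 0.18 (adjusted p = 0.0037). Col5a2 counts were 426, 471 and 573 in air and 711, 717 and 613 in hyperoxia, a log2 fold change of 0.48 ± 0.12 (adjusted p = 0.0159). Its call held in 12 of the 16 alternatives and was lost without air library 1 (adjusted p = 0.0742), air library 2 (0.067) or hyperoxia library 1 (0.0625) and with length and GC trends removed (log2 fold change 0.32, adjusted p = 0.0699).

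The remaining type V chain had the opposite sign. Col5a3 counts were 165, 140 and 175 in air and 116, 120 and 132 in hyperoxia, so all hyperoxia libraries were below all air libraries, but the adjusted p was 0.0617 (log2 fold change -0.38 ± 0.14). It was called lower under 2 alternatives, quantile normalization (adjusted p = 0.0352) and removal of trends with transcript length and GC content (0.0226).

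No change was called for the cartilage-type fibrillar chains. Col2a1 (31.5 to 48.3 in air, 37.1 to 44.4 in hyperoxia), Col11a1 (500.1 to 558 and 460 to 735) and Col11a2 (1440 to 1563 and 1303 to 1693) overlapped between groups, with adjusted p of 0.974, 0.937 and 0.671. The 95% intervals of their log2 fold changes ran from -0.49 to 0.51, from -0.35 to 0.39 and from -0.30 to 0.17, so changes of those sizes were not resolved with 3 mice a group. Col27a1, the other fibrillar chain with a short longest unbroken run (217 triplets), had a log2 fold change of -0.12 and an adjusted p of 0.518.

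**Figure D2:**
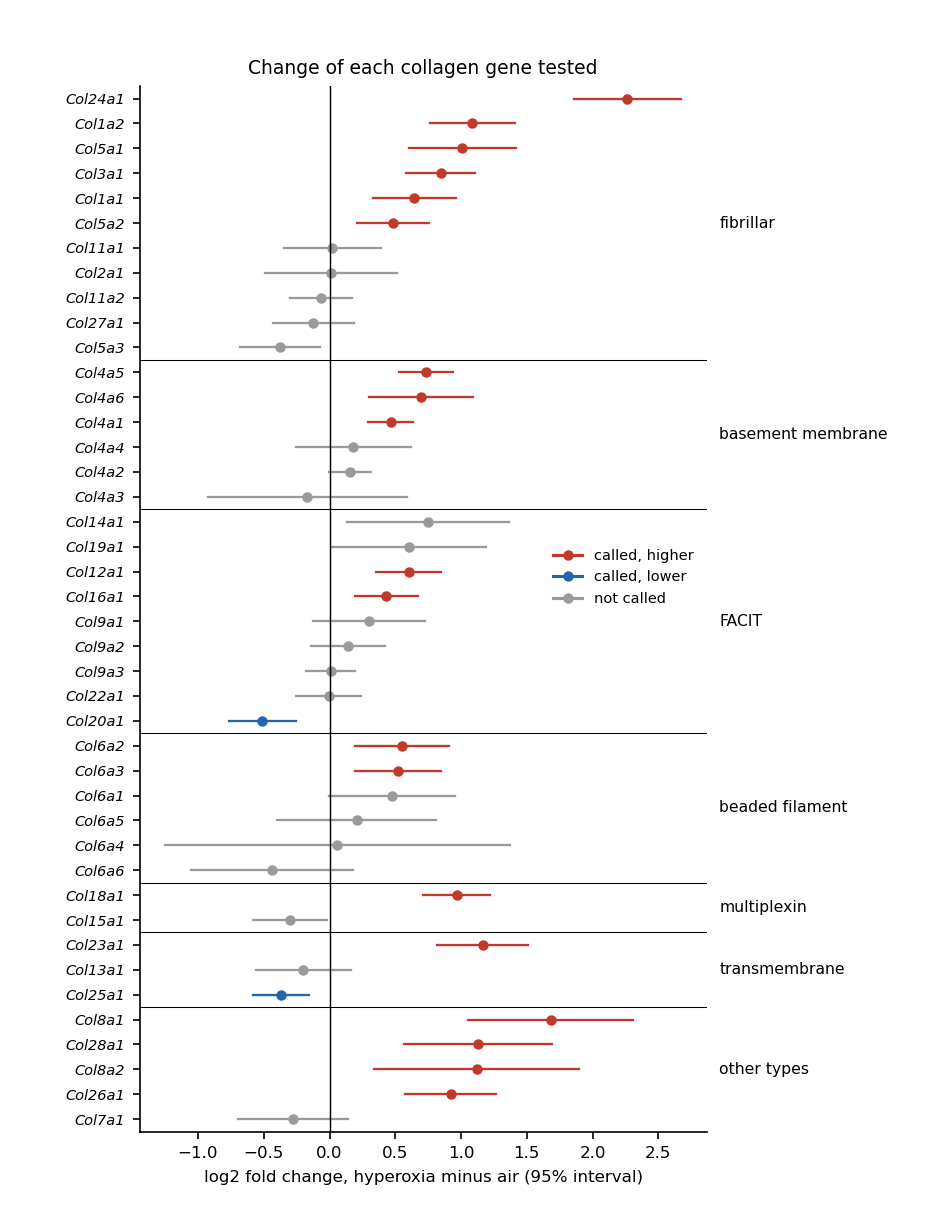
Points are log2 fold changes, hyperoxia minus air, of the 42 tested collagen genes by class, and bars are 95% intervals from limma. Red and blue mark genes called higher (19) and lower (2), and grey marks the 21 not called. Col24a1 stands farthest to the right at 2.26, and intervals are widest for low or variable genes such as Col6a4.

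Type IV collagen, the scaffold of the vascular basement membrane, was higher for 3 of its 6 chains and lower for none, with a median log2 fold change of 0.32. These shares were 50% and 0%, beside 14.9% and 15.6% of all genes tested. The summed count of the 6 genes was 9315, 8832 and 9063 in air and 10576, 12055 and 11469 in hyperoxia, a ratio of means of 1.25. Endothelial markers, given above, had a ratio of 1.18 and were highest in hyperoxia library 2, as was this sum. The fibroblast, the pericyte and smooth muscle and the interneuron sums were also highest in that library. In air, library 3 was the highest for endothelial markers (13288) and library 1 for type IV.

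Col4a1 and Col4a2 form the widespread network, in which 2 Col4a1 chains join 1 Col4a2 chain. Col4a1 counts were 4067, 3802 and 3962 in air and 5008, 5828 and 5542 in hyperoxia (log2 fold change 0.47 ± 0.08, adjusted p = 0.00245). Col4a2 counts were 4786, 4579 and 4651 in air and 4883, 5522 and 5236 in hyperoxia. The Col4a2 groups did not overlap, but the change was smaller (log2 fold change 0.16 ± 0.07) and was not called (adjusted p = 0.121), also under all 16 alternatives.

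These genes lie head to head on chromosome 8, and their annotated starts are 21 bases apart, so that 22 bases belong to the first exon of both. The stretch is shown on the plus strand of GRCm38 (chr8:11312801-11312830, GENCODE M21), because reads within it could be assigned to either gene if counting ignored strand. The capitals mark the bases from the start of Col4a2 (11312805, read rightward) to the start of Col4a1 (11312826, read leftward).
Col4a1-Col4a2: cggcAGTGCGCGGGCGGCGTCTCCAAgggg
The overlap is short against transcripts of 6615 and 6450 bases.

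Col4a5 and Col4a6, the X-linked chains found in specialised basement membranes and in those of smooth muscle, were both higher. Col4a5 counts were 274, 259 and 268 in air and 457, 455 and 424 in hyperoxia with no overlap, a log2 fold change of 0.73 ± 0.09 (adjusted p = 0.00093). Col4a6 counts were 102, 71.2 and 83.2 in air and 132, 161 and 123 in hyperoxia (log2 fold change 0.70 ± 0.18, adjusted p = 0.0155). Col4a6 kept its call in 14 alternatives and lost it when air library 2 (adjusted p = 0.0696) or air library 3 (0.0506) was left out. Their annotated starts face away from each other 1343 bases apart on chromosome X.

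Col4a3 and Col4a4, the chains best known from the kidney filter, were low and overlapped between groups. Col4a3 ranged from 27.3 to 36.6 in air and from 19.2 to 48.3 in hyperoxia (adjusted p = 0.734), and Col4a4 from 58.4 to 83.4 and from 70.2 to 95.6 (adjusted p = 0.505). The 95% interval of the log2 fold change was -0.93 to 0.59 for Col4a3 and -0.26 to 0.62 for Col4a4.

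For 2 of 8 pairs of partner chains the ratio of the chains did not overlap between groups, although no pair passed a test. For 8 pairs of genes whose products assemble together, the ratio of normalized counts was formed in each library, a comparison added after the values were seen. The ratio of Col1a1 to Col1a2 was 1.39, 1.35 and 1.44 in air and 1.04, 1.01 and 1.02 in hyperoxia, a difference in log2 ratio of -0.44. The ratio of Col4a1 to Col4a2 was 0.850, 0.830 and 0.852 in air and 1.03, 1.06 and 1.06 in hyperoxia, a difference of 0.31. In both pairs the groups were separated by several times their spread, yet 3 libraries a group allow no two-sided exact permutation p below 0.1, which both reached (0.4 after Benjamini-Hochberg adjustment over the 8 pairs). With trends on transcript length and GC content removed, the differences were -0.46 and 0.31. The other 6 ratios (Col4a3 to Col4a4, Col4a5 to Col4a6, Col5a1 to Col5a2, Col6a1 to Col6a2, Col8a1 to Col8a2 and Col9a1 to Col9a2) overlapped between groups. Among all single genes tested, 22.3% had every hyperoxia library above every air library and 23.8% had every one below.

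**Figure D3:**
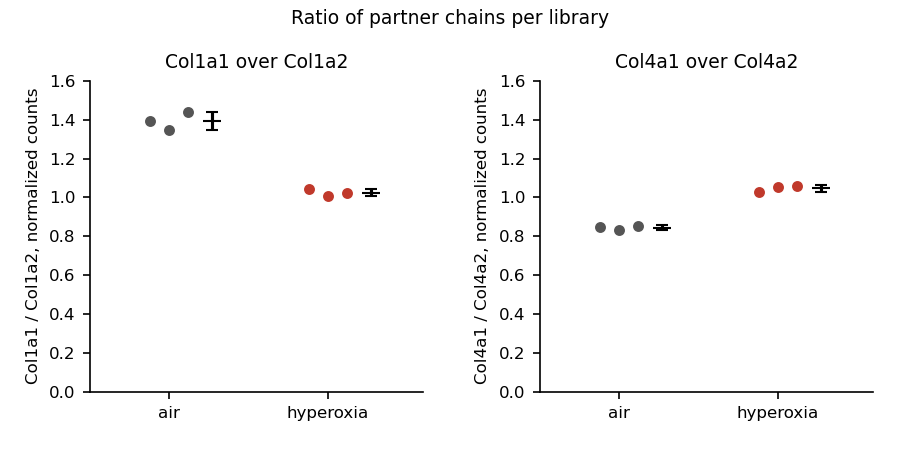
Ratio of normalized counts of Col1a1 to Col1a2 (left) and of Col4a1 to Col4a2 (right), with 1 point per library and the mean ± SD of each group (n = 3) beside the points. The ratio fell from 1.39 to 1.03 on the left and rose from 0.844 to 1.05 on the right, with no overlap between groups. The other pairs compared overlapped between groups and are not drawn.

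Of the other collagen types, 10 of 25 tested genes were higher and 2 were lower, with a median log2 fold change of 0.43. These shares were 40% and 8%, beside 14.9% and 15.6% of all genes tested. The summed count of all 27 was 9029, 8591 and 9481 in air and 10683, 11461 and 10418 in hyperoxia, a ratio of means of 1.20.

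The short-chain type VIII collagens, which form hexagonal networks beneath endothelium, were both higher. Col8a1 counts were 38.6, 20.4 and 31.8 in air and 76.9, 88.3 and 130 in hyperoxia, a log2 fold change of 1.68 ± 0.28 (adjusted p = 0.00262). Col8a2 counts were 16.01, 16.3 and 28.7 in air and 39.8, 30.6 and 68.5 in hyperoxia (log2 fold change 1.12 ± 0.35, adjusted p = 0.0362). That call held in 10 of the 15 alternatives that tested the gene and was lost in limma without the trend (adjusted p = 0.0668) and without air library 1 (adjusted p = 0.129), air library 2 (0.122), hyperoxia library 1 (0.0794) or hyperoxia library 3 (0.108). For both genes hyperoxia library 3 was the highest, which was the library with the most choroid plexus RNA, and the part of that RNA in these values was not tested.

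Col28a1, a chain linked to peripheral glia, and Col26a1, a small chain first described in gonads, were higher as well. Col28a1 counts were 25.4, 29.5 and 22.6 in air and 74.3, 60 and 42.5 in hyperoxia (log2 fold change 1.13 ± 0.25, adjusted p = 0.0090). Col26a1 counts were 318, 292 and 293 in air and 568, 725 and 451 in hyperoxia (log2 fold change 0.92 ± 0.15, adjusted p = 0.00277). Neither gene overlapped between the groups. Col7a1, the anchoring-fibril chain, ranged from 174 to 229 in air and from 131 to 207 in hyperoxia and was not called (log2 fold change -0.28, adjusted p = 0.283).

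The multiplexins are proteoglycan collagens of the vascular basement membrane zone, and 1 of the 2 was called. Col18a1, the precursor of endostatin, had counts of 373, 306 and 341 in air and 662, 742 and 595 in hyperoxia, a log2 fold change of 0.97 ± 0.11 (adjusted p = 0.000724). Col15a1 had counts of 782, 808 and 666 in air and 590, 530 and 720 in hyperoxia, and the groups overlapped through hyperoxia library 3. Its log2 fold change was -0.30 ± 0.13 (adjusted p = 0.0962), and without hyperoxia library 3 it was called lower (-0.42, adjusted p = 0.0181).

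Of the 3 transmembrane collagens tested, 1 was higher and 1 was lower. Col23a1 had counts of 325, 242 and 336 in air and 729, 743 and 551 in hyperoxia, a log2 fold change of 1.16 ± 0.16 (adjusted p = 0.00112). Col25a1, a chain of neurons that was identified in amyloid plaques, was lower, with 1651, 1609 and 1825 in air and 1208, 1249 and 1488 in hyperoxia. Its log2 fold change was -0.37 ± 0.10 (adjusted p = 0.0176), and the call held in 12 of 16 alternatives. It was lost in limma without the trend (adjusted p = 0.0565) and without air library 1 (adjusted p = 0.0576), air library 3 (0.0781) or hyperoxia library 1 (0.0737). Hippocampal neuron markers, given above, were lower in the same libraries. Col13a1 did not pass the test (72.9 to 94.6 in air, 69.5 to 74.7 in hyperoxia, adjusted p = 0.375), and Col17a1 was below the level tested, at 4.07 to 10.3 in air and 7.72 to 19.2 in hyperoxia.

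Type VI collagen makes beaded microfilaments from 1 chain each of Col6a1, Col6a2 and Col6a3. Col6a2 counts were 544, 456 and 606 in air and 842, 923 and 609 in hyperoxia (log2 fold change 0.55 ± 0.16, adjusted p = 0.0275), and hyperoxia library 3 barely exceeded the highest air library. Col6a3 counts were 157, 170 and 132 in air and 256, 202 and 203 in hyperoxia (log2 fold change 0.52 ± 0.15, adjusted p = 0.0245). Both calls held in 12 of 16 alternatives. That of Col6a2 was lost in limma without the trend (adjusted p = 0.0805) and without air library 1 (adjusted p = 0.0818), air library 2 (0.115) or hyperoxia library 1 (0.0979). That of Col6a3 was lost without air library 1 (adjusted p = 0.0688), air library 3 (0.0924) or hyperoxia library 1 (0.0981), and with length and GC trends removed (0.117). Col6a1, with 1161, 938 and 1338 in air and 1559, 2202 and 1135 in hyperoxia, overlapped and was not called (log2 fold change 0.47 ± 0.21, adjusted p = 0.121), but was called higher when hyperoxia library 3 was left out (0.71, adjusted p = 0.0106). The chains that can stand in for Col6a3, namely Col6a4, Col6a5 and Col6a6 were low and not called (adjusted p = 0.946, 0.588 and 0.256), and Col6a4 ranged from 23.6 to 118 within the air group alone.

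The FACIT collagens, which decorate the surface of fibrils, held calls in both directions. Col12a1 counts were 348, 296 and 327 in air and 488, 445 and 543 in hyperoxia (log2 fold change 0.60 ± 0.11, adjusted p = 0.00388). Col16a1 counts were 468, 414 and 529 in air and 660, 646 and 589 in hyperoxia (log2 fold change 0.43 ± 0.11, adjusted p = 0.0148). Both genes were higher in every hyperoxia library than in any air library, but the call of Col16a1 was lost without air library 1 (adjusted p = 0.0575), air library 2 (0.0707) or hyperoxia library 1 (0.0602). Col20a1 was lower, with 288, 312 and 324 in air and 219, 194 and 237 in hyperoxia (log2 fold change -0.51 ± 0.11, adjusted p = 0.00967), and it was called under all 16 alternatives. Its annotation shares 79 exon bases on the same strand with the more abundant gene 9230112E08Rik, so the split of reads between the genes there is uncertain.

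The remaining FACIT genes were not called. Col14a1 (29.5 to 51.3 in air, 45.3 to 73.4 in hyperoxia, adjusted p = 0.0652) and Col19a1 (200.5 to 255 and 213 to 492, adjusted p = 0.107) had positive log2 fold changes of 0.75 and 0.60, and each was called under 2 alternatives. Those were leaving out air library 3 (adjusted p = 0.0345) or hyperoxia library 2 (0.0129) for Col14a1, and DESeq2 (0.0171) or leaving out hyperoxia library 2 (0.000311) for Col19a1. Col9a1, Col9a2, Col9a3 and Col22a1 had adjusted p of 0.255, 0.419, 0.946 and 0.965. The interval of Col9a3, the most abundant of them, was narrow (-0.18 to 0.19). Col10a1, the hypertrophic cartilage chain, was below the level tested, at 0 to 4.07 in air and 4.53 to 7.07 in hyperoxia.

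The order of expression per unit length was led by type IV chains in both groups. In air, Col4a2 (20.1 ± 0.3 RPKM, SD, n = 3), Col4a1 (16.5 ± 0.5), Col9a3 (12.5 ± 0.9), Col6a1 (7.74 ± 1.36) and Col25a1 (7.004 ± 0.506) came first, and Col6a1, Col25a1 and Col11a2 (6.83 ± 0.34) lay within their spread of each other. In hyperoxia, Col4a1 (24.3 ± 1.6 RPKM) and Col4a2 (23.8 ± 1.2) were no longer separated by more than their spread, followed by Col9a3 (13.3 ± 0.8), Col6a1 (11.7 ± 3.7), Col1a2 (10.6 ± 2.0) and Col1a1 (9.84 ± 1.90). Col25a1 moved from position 5 to 10 of 44, Col15a1 from 9 to 17, Col5a1 from 19 to 12 and Col24a1 from 35 to 24.

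Genes that make, process, bind and break down collagen were examined in 7 lists with 77 tested genes, of which 26 were higher and 8 were lower, beside 14.9% and 15.6% of all genes tested. The shares in the lists for modification and for propeptide removal (12.5% higher and 12.5% lower) were near those of all genes. In the cell, chains are hydroxylated and folded before release, and here 2 of 19 genes were higher and 4 were lower (10.5% and 21.1%, median log2 fold change -0.03). The collagen chaperone gene Serpinh1 was 1613 ± 33 in air and 2305 ± 350 in hyperoxia (log2 fold change 0.50, adjusted p = 0.00617), and Fkbp10, a proline isomerase, was also higher (0.36, adjusted p = 0.0279). The call of Fkbp10 held in 12 of the 16 alternatives. The lysyl hydroxylase gene Plod2 was 571 ± 12 in air and 375 ± 49 in hyperoxia (log2 fold change -0.61, adjusted p = 0.00315), and Ppib, another isomerase, was lower as well (-0.46, adjusted p = 0.00925). The prolyl hydroxylase genes P4ha2 and P3h1 completed the lower genes, and these were named after their values were seen. Their calls held in 9 and 15 of the 16 alternatives.

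Outside the cell, propeptides are cut off before fibrils form. Bmp1, the C-proteinase gene, was lower in hyperoxia, with 4086, 4116 and 4428 in air and 2202, 2306 and 2538 in hyperoxia (log2 fold change -0.84 ± 0.08, adjusted p = 0.000311). Adamts2, the N-proteinase gene, was higher, with 238, 195 and 244 in air and 482, 351 and 344 in hyperoxia (log2 fold change 0.78 ± 0.15, adjusted p = 0.00511). Hence these 2 genes, whose products cut opposite ends of the fibrillar chains, changed in opposite directions. The other 6 genes of that list were not called and had signs both ways. Their log2 fold changes were 0.59 (Adamts3), 0.47 (Tll1), 0.48 (Tll2), 0.21 (Pcolce), -0.38 (Adamts14) and -0.39 (Pcolce2), named after the values were seen. The cross-linking enzyme gene Lox was higher (70.6 ± 12.99 in air, 115 ± 23 in hyperoxia, adjusted p = 0.0285) as 1 of 5 tested (20%, beside 14.9% of all genes tested). Its call held in 11 of the 16 alternatives.

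Among breakdown genes 3 of 11 were higher (27.3%, beside 14.9% of all genes tested) and none was lower. They were Timp3, an inhibitor of matrix metalloproteinases bound to the matrix (958 ± 61 in air, 1665 ± 97 in hyperoxia, adjusted p = 0.000437), the collagen uptake receptor gene Mrc2 (254 ± 18 and 387 ± 43, adjusted p = 0.00468) and, named after its values were seen, the protease gene Ctsk. No matrix metalloproteinase tested was called by the main analysis. The call of Ctsk held in 12 of the 16 alternatives. The number of breakdown genes called higher was 8 with length and GC trends removed and 5 with DESeq2. It was 5 without hyperoxia library 2 or hyperoxia library 3, and 2 without air library 1 or air library 3. Of 7 collagen receptor genes tested, 2 were higher and 2 were lower (28.6% each). The integrin subunits Itgb1 (log2 fold change 0.50, adjusted p = 0.00137) and Itga1 (1.05, adjusted p = 0.00234) were higher. Itga10 (-0.69, adjusted p = 0.00885) and the receptor kinase gene Ddr1 (-0.32, adjusted p = 0.039) were lower, and the call of Ddr1 held in 10 of the 16 alternatives.

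Of the 7 lists, those of matrix partners held the largest shares of higher genes. Of 16 basement membrane partners, 9 were higher and none was lower (median log2 fold change 0.67). Hspg2, encoding perlecan, was 832 ± 38 in air and 1471 ± 98 in hyperoxia (log2 fold change 0.82, adjusted p = 0.000389). Of 11 fibril partners, 8 were higher and 1 was lower (median 0.57). Fn1, encoding fibronectin, was 3139 ± 624 in air and 5677 ± 461 in hyperoxia (log2 fold change 0.87, adjusted p = 0.00186), and the small proteoglycan gene Ogn was 101 ± 15 and 258 ± 51 (1.33, adjusted p = 0.00106). Tnxb, encoding tenascin-X, was the lower one (-0.46, adjusted p = 0.00775).

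**Figure D4:**
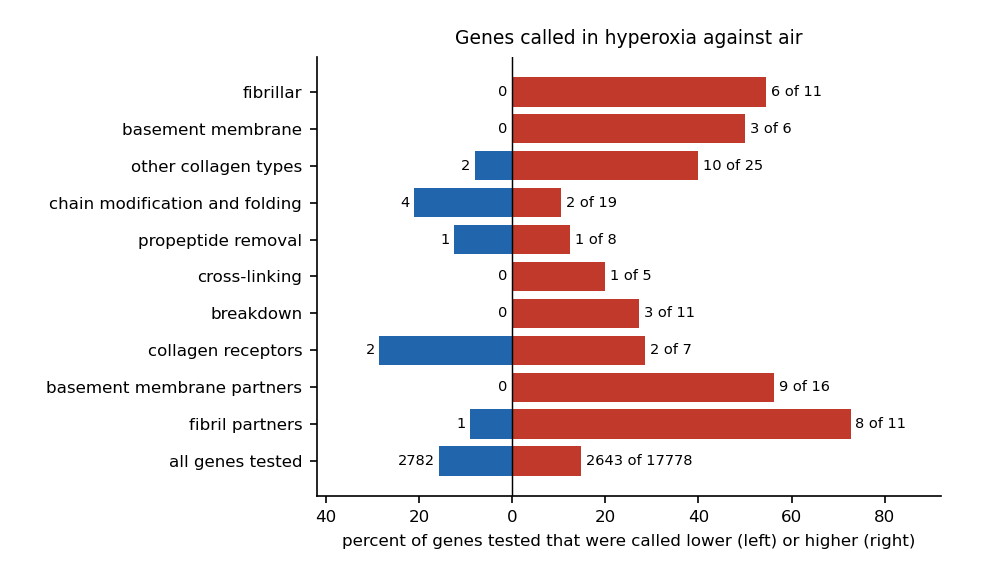
Bars give the percentage of tested genes in each list that were called higher (red, right) or lower (blue, left) in hyperoxia, with counts beside the bars. Fibril partners (8 of 11), basement membrane partners (9 of 16) and fibrillar collagens (6 of 11) extend farthest to the right, while the bars for all genes tested are of similar length on both sides.

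Collagen sums, partner sums and marker sums were set side by side as ratios to the air mean. Fibril partners had a ratio of means of 1.52 and basement membrane partners of 1.17, next to 1.49 for fibrillar and 1.25 for type IV collagen. Fibroblast markers had a ratio of 1.45, endothelial markers of 1.18, pericyte and smooth muscle markers of 1.14 and hippocampal excitatory neuron markers of 0.734. No air library overlapped with a hyperoxia library in any of these sums. Choroid plexus markers did overlap, and their ratio of 3.37 came from hyperoxia library 3. Interneuron markers, with a ratio of 0.982, overlapped as well.

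**Figure D5:**
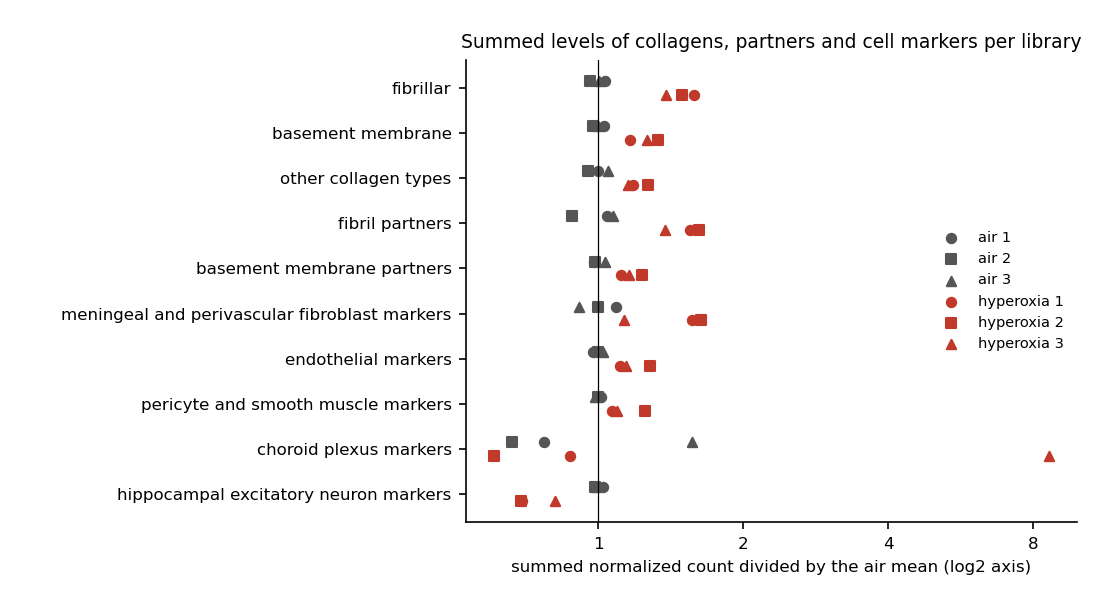
Each point is the summed normalized count of a gene list in 1 library divided by the mean of the 3 air libraries, on a log2 axis (grey, air; red, hyperoxia; shape, library number). Collagen, partner, fibroblast, endothelial and pericyte sums lie above 1 in all 3 hyperoxia libraries, excitatory neuron sums lie below 1, and choroid plexus sums are scattered with hyperoxia library 3 far to the right. Sums of thalamus, interneuron and glial markers are not drawn.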

How the data were processed

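The study sequenced polyA-selected, strand-specific libraries of left hippocampus as paired reads of 75 bases. The submitters' processing notes name FastQC, STAR 2.5.3a, HTSeq and DESeq2. The deposited values are a signal, namely read counts that the authors divided by a DESeq2 size factor per library. For the authors' genome build, annotation release and strand setting: not given in the sources used here. Every value came out as a whole number of reads (100% within 0.01) once multiplied by 1 factor per library, so reads were recovered. A second deposited table holds the authors' own fold changes and p-values and was not used. Directions rest on the column names alone, and their orientation is in doubt because signs printed by the study for several genes run the other way. Columns name the group and a number that is not tied to an animal.

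Genes with a mean of at least 10 were tested with limma 3.58.1 (trend) on log2(value + 1), and p-values were adjusted by Benjamini-Hochberg over 17778 genes at a threshold of 0.05. Fold changes on this scale understate those of low genes. Alternatives were no filter, a mean of at least 50, pseudocounts of 0.5 and 5, quantile normalization, TMM scaling, no trend, edgeR 4.0.16 and DESeq2 1.42.0 on recovered reads, removal of length and GC trends (mgcv 1.9.3), and each library left out. The methods were tested on simulated data. Ratios of partner chains used exact two-sided permutation tests. Lengths and coordinates came from GENCODE M21 (GRCm38), which held 99.7% of the gene identifiers. RPKM used the longest transcript.

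Members, classes, pathway lists and marker lists were chosen with earlier results of these data known. Genes named are all called collagens, a list of main collagens whatever their outcome, and the 2 called genes per direction with the smallest adjusted p in each pathway list. An item that this rule would name is not reported here. Only 3 mice a group were measured, and litter and sex are not given per library. The limma p-values set the group difference against the spread between these mice, which limma moderates by a trend over all genes tested.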

Additional observations from a re-analysis of the deposited data

How the results depend on the processing

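The number of collagen genes called was 21 and ranged from 15 to 23 with 1 library left out and from 18 to 22 under the other alternatives; removal of length and GC trends gave 20 (17 higher, 3 lower; median log2 fold change 0.32). On the recovered reads, edgeR called 19 collagen genes higher and 2 lower, and 2779 and 2722 of all genes tested. With 1 library left out, calls over all genes tested ranged from 1454 (without air library 1) to 3840 (without hyperoxia library 2) higher, against 2643, and from 1602 to 3931 lower, against 2782. Collagen genes were longer than all genes tested (median transcript 6084 against 3152 bases) and richer in GC (55.1 against 49.5%). With 1 library left out, fibrillar calls ranged from 5 to 6, type IV from 2 to 3, other types from 7 to 14 (7 without air library 1 or without hyperoxia library 1, against 12) and pathway genes from 24 to 43. Without its most abundant gene, the log2 ratio of summed counts was 0.48 for type IV (0.33 with it) and 0.38 for other types (0.26). The partner difference Col4a5/Col4a6 was 0.04 and ranged from -0.075 to 0.14 with 1 library left out. Over the single collagen genes, 26 results lost and 8 gained a call. Signs changed only in genes not called. Col2a1 (0.01) was -0.012 under quantile normalization, -0.0073 with edgeR, -0.00078 with DESeq2, -0.0061 with length and GC trends removed, and -0.17 to 0.13 with 1 library left out. Col6a4 (0.06) was -0.020 with edgeR, -0.0058 with DESeq2, -0.068 with trends removed, and -0.58 to 0.56 with 1 library left out. With trends removed, Col11a1 was -0.19, Col4a4 was -0.050 and Col6a5 was -0.028. Col22a1 was 0.0045 with DESeq2. With 1 library left out, Col9a3 ranged from -0.042 to 0.067, Col11a1 from -0.20 to 0.14, Col27a1 from -0.23 to 0.013, Col22a1 from -0.046 to 0.030 and Col4a3 from -0.55 to 0.087. No paired analysis was possible because the labels number the animals across both groups and the columns carry no animal number. Genes with low counts (Col8a2, Col4a3, Col6a6) have wide intervals at this depth and with 3 mice a group.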

Other observations

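Among the 19 collagen genes called higher, hyperoxia library 3 was the lowest of its group for 12 and the highest for 3, and air library 2 was the lowest of the air group for 12. Hyperoxia library 2 and hyperoxia library 3 were also those farthest apart on principal component 2 of all genes tested (19.5% of the variance), the groups being apart on principal component 1 (52.7%).

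RefSeq promoter windows (GRCm38.p6, the 250 bases before a start, both strands) were at hand for 35 of the 44 collagen genes. GGGCGG, the GC box, was in 60% of them and in 35.4% of 27025 genes. CCAAT was in 37.1% and 37.5%, and TATAAA in 14.3% and 14.3%. These matches are descriptions of sequence and not binding sites.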
